A study of Homo sapiens with 4 samples.

Results

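Of the 31869 open chromatin regions that were found in all 4 ATAC-seq libraries of the series, 1509 (4.74%) ranked higher in the enzalutamide-resistant cells than in the parental LNCaP cells, and these regions are described here. ATAC-seq marks accessible DNA by the insertion of sequencing adapters with a transposase. The libraries were 2 of LNCaP, a prostate cancer cell line given as wild type, and 2 of LNCaP-resistance, given as resistance cells treated with enzalutamide. Both were grown in RPMI-1640 with fetal bovine serum, and each cell type had a batch label of repeat 1 and repeat 2. The study raised its resistant sublines from this 1 parental line under increasing enzalutamide in charcoal-stripped serum, and the labels do not say which subline was used, while the study's figure captions compare LNCaP peaks with those of its subline LN-35. The labels also do not say whether the 2 libraries of a cell type came from separate cultures, so the spread between them may be technical.

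The members were chosen on the scores of the peak summits, so their percentiles are given as a description with no test. Windows of 250 bp to each side of every summit were joined wherever they overlapped, across libraries, which gave 151102 regions. A region's value in a library is the percentile of its best summit score among the 31869 shared regions of that library, where 100 is the most strongly called region. A member had a mean over the resistant libraries at least 40 points above the LNCaP mean, with both resistant values above both LNCaP values. By the mirror rule 2201 shared regions (6.91%) ranked lower in resistance. The balance depends on the ranking, since percentiles among all summits of a library gave 644 higher and 2717 lower. An exact two-sided permutation test of 2 libraries against 2 cannot go below a p of 0.333, so no cell type difference was tested.

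Open chromatin lies mainly at promoters, where transcription starts and nucleosomes are displaced by the transcription machinery, and at distal enhancers, where sequence-specific factors bind. In luminal prostate cells the androgen receptor works with FOXA1, HOXB13 and GATA factors at such distal sites, and enzalutamide blocks that receptor. Resistant prostate cancers are known to use other steroid receptors, AP-1 factors, stem cell factors or neuroendocrine factors in place of androgen receptor signalling. Every library had summits at all 7 luminal and all 7 neuroendocrine marker genes examined, so a summit at a marker did not separate the cell types.

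The sequences below are the 250 bases before the transcription start of the 8 protein-coding promoter members of largest change whose best summits in both resistant libraries lay in the promoter window, and of NR3C1 and ALDH1A1, members of the steroid receptor and stemness lists. They come from RefSeq on GRCh38.p14 (hg38) and read 5′ to 3′ on the strand of the gene. Capitals mark the best summit of resistant replicate 1 with 10 bases on either side. SLC46A3 lies at chr13:28718971-28719220, LRAT at chr4:154743750-154743999, KHDRBS2 at chr6:62286226-62286475, PXMP4 at chr20:33720311-33720560, DDB2 at chr11:47214204-47214453, NFYC at chr1:40709116-40709365, CA10 at chr17:52158715-52158964, DCTN1 at chr2:74374668-74374917, NR3C1 at chr5:143403687-143403936 and ALDH1A1 at chr9:72953054-72953303.
SLC46A3: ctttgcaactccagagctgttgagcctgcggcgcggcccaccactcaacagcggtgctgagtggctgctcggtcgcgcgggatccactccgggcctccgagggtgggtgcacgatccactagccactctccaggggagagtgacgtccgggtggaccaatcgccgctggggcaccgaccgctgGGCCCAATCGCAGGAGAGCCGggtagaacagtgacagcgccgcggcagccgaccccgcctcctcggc
LRAT: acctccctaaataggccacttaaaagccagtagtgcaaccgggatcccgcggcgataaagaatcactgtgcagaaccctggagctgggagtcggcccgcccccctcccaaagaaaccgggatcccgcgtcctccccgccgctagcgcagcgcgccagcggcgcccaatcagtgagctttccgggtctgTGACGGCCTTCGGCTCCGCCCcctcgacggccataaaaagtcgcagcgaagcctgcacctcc
KHDRBS2: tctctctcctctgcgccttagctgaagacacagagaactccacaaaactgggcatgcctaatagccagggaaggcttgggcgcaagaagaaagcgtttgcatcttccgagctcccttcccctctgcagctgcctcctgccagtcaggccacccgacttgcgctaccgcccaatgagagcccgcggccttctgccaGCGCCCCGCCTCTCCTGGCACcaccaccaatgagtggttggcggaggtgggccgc
PXMP4: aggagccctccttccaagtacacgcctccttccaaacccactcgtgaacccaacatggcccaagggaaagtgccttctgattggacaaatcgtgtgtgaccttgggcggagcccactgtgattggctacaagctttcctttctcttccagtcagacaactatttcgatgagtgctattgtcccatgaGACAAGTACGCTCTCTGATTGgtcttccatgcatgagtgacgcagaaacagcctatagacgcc
DDB2: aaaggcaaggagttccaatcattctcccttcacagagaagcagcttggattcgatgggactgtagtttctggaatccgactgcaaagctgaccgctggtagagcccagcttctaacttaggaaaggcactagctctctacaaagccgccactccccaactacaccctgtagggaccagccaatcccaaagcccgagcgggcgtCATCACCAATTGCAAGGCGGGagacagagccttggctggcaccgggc
NFYC: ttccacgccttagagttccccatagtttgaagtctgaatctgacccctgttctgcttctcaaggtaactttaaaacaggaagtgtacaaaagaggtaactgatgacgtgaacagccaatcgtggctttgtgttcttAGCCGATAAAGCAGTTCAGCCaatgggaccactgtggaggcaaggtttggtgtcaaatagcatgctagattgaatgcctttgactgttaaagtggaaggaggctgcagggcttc
CA10: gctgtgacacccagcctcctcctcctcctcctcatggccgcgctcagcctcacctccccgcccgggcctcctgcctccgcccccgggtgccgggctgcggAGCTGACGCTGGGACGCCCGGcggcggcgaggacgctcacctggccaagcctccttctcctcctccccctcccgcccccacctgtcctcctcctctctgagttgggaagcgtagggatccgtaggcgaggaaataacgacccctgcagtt
DCTN1: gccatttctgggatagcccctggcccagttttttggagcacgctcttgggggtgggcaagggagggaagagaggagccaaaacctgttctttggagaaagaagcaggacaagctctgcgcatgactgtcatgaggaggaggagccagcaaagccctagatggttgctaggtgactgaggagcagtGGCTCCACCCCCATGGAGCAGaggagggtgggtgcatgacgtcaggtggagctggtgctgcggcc
NR3C1: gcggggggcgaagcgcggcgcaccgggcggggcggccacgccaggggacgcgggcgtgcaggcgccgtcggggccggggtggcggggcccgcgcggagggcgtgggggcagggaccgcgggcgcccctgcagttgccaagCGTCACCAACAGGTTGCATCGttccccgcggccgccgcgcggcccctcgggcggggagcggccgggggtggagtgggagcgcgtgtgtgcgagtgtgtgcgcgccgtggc
ALDH1A1: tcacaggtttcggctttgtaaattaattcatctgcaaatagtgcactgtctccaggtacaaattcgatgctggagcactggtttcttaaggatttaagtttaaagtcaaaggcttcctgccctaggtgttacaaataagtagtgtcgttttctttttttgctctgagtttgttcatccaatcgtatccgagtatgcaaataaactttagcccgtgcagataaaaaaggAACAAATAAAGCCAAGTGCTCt

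The resistant summits in these windows lay 12 to 140 bases upstream of the starts. In resistant replicates 1 and 2 they were 57 and 44 bases upstream at SLC46A3, 52 and 53 at LRAT, 45 and 53 at KHDRBS2, 37 and 45 at DDB2, and 55 and 52 at DCTN1, and closest at ALDH1A1, by 12 and 17 bases. They lay farther up at CA10, by 140 and 114 bases, at NFYC, by 104 and 95, and at NR3C1, by 100 and 86, and differed between the replicates at PXMP4, with 53 and 101 bases. Their base composition was mixed, with 82.0% G and C and 42 CpG at NR3C1 against 38.4% and 6 CpG at ALDH1A1, and 46.0% and 4 CpG at NFYC. The letters CCAAT, on either strand, occurred in 7 of the 10 windows, all but those of CA10, DCTN1 and NR3C1. These 10 were chosen by change or list. In promoter windows of 300 bases the letters occurred in 34.9% for members, 38.3% for other shared regions and 34.6% for all windows.

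Over all 1509 members, the median percentile was 14.1 and 14.5 in LNCaP replicates 1 and 2, against 71.6 and 70.0 in resistant replicates 1 and 2. Median scores, each a −log10 p-value or q-value, were 11.3 and 8.43 in LNCaP against 59.3 and 27.2 in resistance. Scores are not on a common scale between libraries. Over all shared regions their medians were 26.3 and 20.9 in LNCaP and 36.9 and 15.3 in resistance. Members were therefore weakly called in LNCaP and lay above the middle of the ranking in resistance, rather than at its top. Of the 1509 members, 985 had an LNCaP mean of 20 or less, and 139 had a resistant mean of 90 or more. Over all 31869 shared regions these counts were 5995 and 2958, so a resistant mean of 90 or more was about as common in members as in shared regions.

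The change, the resistant mean minus the LNCaP mean, had a median of 50.6 points with quartiles of 44.1 and 59.97, and 57 members changed by 80 points or more. The rule requires a change of at least 40 points, so its size beside the gap between replicates is no evidence of reproducibility. The median gap between replicates over members was 7.18 points in LNCaP and 7.20 points in resistance, against 7.68 and 7.80 points over all shared regions. The replicates of a cell type differed by 40 points or more in 5 members for LNCaP and 5 for resistance. Over all 31869 shared regions they did so in 226 and 222. The rule sets both resistant values above both LNCaP values, which itself limits such gaps in members. A change of 40 points within replicate number 1 and again within replicate number 2, the paired form of the rule, was met by 970 of the 1509 members.

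**Figure D1:**
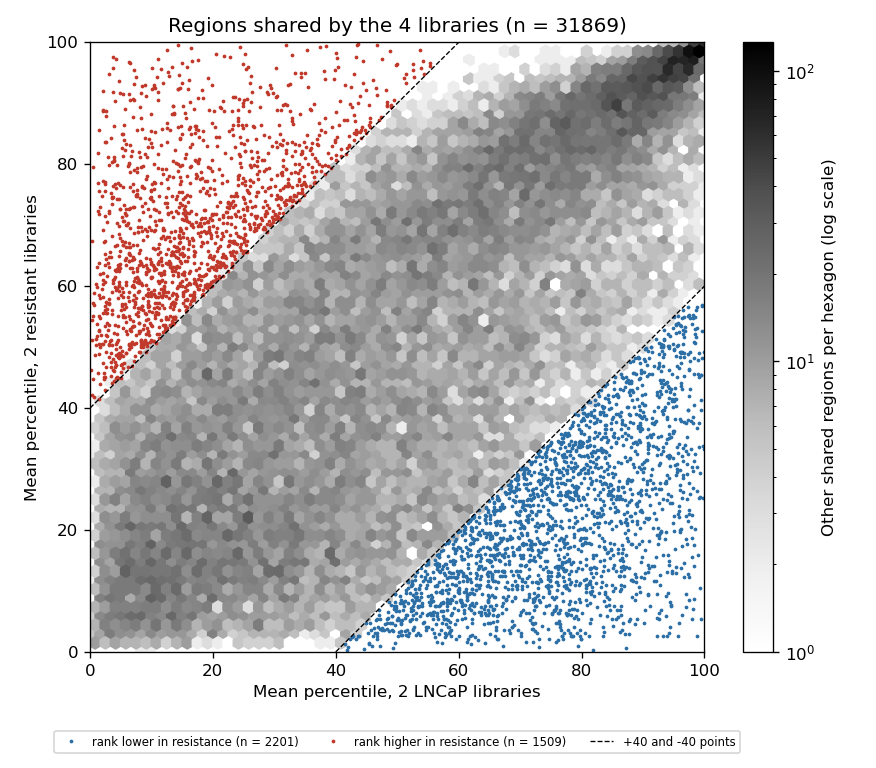
Mean percentile of each shared region in the LNCaP libraries (x axis) and in the resistant libraries (y axis), with members as red points, the 2201 regions that ranked lower as blue points and all other shared regions as grey hexagons on a log scale. The 1509 members sit above the upper dashed line of +40 points and are densest next to it, where LNCaP means are low.

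The limit cuts through a continuous spread. Just inside it were regions 19.1 kb from PLXND1, a semaphorin receptor, at 40.009 points, at the lncRNA LOC105370777, at 40.017 points, and near MAPK11, a p38 kinase, at 40.019 points. Just outside were regions in EPS15L1 at 39.997 points, 33.0 kb from SCG2 at 39.965 points, and near ESRP2, a splicing regulator of epithelial cells, at 39.962 points.

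The summits of the 4 libraries mostly marked the same place in a member. The mean resistant summit lay a median of 27.5 bp from the mean LNCaP summit, against 22.0 bp over all shared regions, and the 4 best summits lay within 150 bp of one another in 1107 members (73.4%) against 76.6% of all shared regions. Members had a median width of 577 bp, against 562 bp, and 1323 of them (87.7%) held 1 summit of each library.

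One of the 12 largest changes, at chr17:81471945-81472491, lay 5.61 kb from BAHCC1, the gene of a chromatin protein with a BAH domain, and had percentiles of 5.23 and 3.08 in LNCaP against 99.0 and 95.7 in resistance. The region lay below percentile 10 in both LNCaP libraries and above percentile 90 in both resistant libraries.

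Others of the 12 largest changes lay at or near an end of RPL39L, a paralogue of a ribosomal protein gene, with 3.64 and 2.63 against 93.5 and 96.1, and of the zinc finger gene ZNF99, with 7.995 and 4.56 against 98.5 and 94.97. A region inside CACNB1, a calcium channel subunit gene, at chr17:39177117-39177697 had 4.09 and 0.126 against 94.5 and 89.4. Across these 3 the resistant values were at least 89.4 and the LNCaP values at most 7.995.

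Further regions among these 12 lay 6.34 kb from CDH17, a cadherin of the intestine, with a change of 92.0 points, and at the promoter of LINC02837 with 89.0 points. Others lay 86.1 kb from LOC128966717 with 88.4 points, and 44.0 kb from RPE65, the retinoid isomerase of the visual cycle, with 88.0 points. The last 2 lay 4.19 kb from PRR14L with 87.0 points, and inside PLEKHA4 with 86.9 points. SLC46A3, a transporter of the lysosome, was also among the 12, with 12.5 and 0.455 in LNCaP against 99.1 and 94.3 in resistance. Its replicates in LNCaP lay 12.0 points apart, and both were below the resistant values, as the rule requires.

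The 8 promoters printed for their large change had wide gaps between the cell types by that choice. LRAT, which esterifies retinol, had 2.49 and 2.63 against 91.5 and 86.1. DDB2, a sensor of ultraviolet DNA damage, had 11.8 and 9.45 against 90.6 and 94.4. NFYC, a subunit of the factor that binds CCAAT boxes, had 9.01 and 13.3 against 88.3 and 95.5 at the start shown above. All 3 genes had resistant values of at least 86.1 and LNCaP values of at most 13.3.

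KHDRBS2, an RNA-binding protein gene, had 17.6 and 4.56 in LNCaP against 97.4 and 97.2 in resistance. CA10, a carbonic anhydrase relative without known enzyme activity, had 4.95 and 9.18 against 86.0 and 89.4. DCTN1, which encodes a subunit of the dynein activator dynactin, had 21.4 and 11.7 against 98.3 and 95.7. In each of these genes the gap between the cell types, large by the choice of these promoters, was several times the gap between replicates.

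The members that stood highest in resistance were often already mid-ranked in LNCaP. PXMP4, a peroxisomal membrane protein gene, had 99.7 and 99.5 in resistance against 20.6 and 7.98 in LNCaP. TMEM30B, a subunit gene of lipid flippases, had 99.4 and 99.1 against 22.3 and 26.6, and HSPA2, a heat shock protein gene, had 99.9 and 98.9 against 53.2 and 23.5. The others of the 8 with the highest resistant mean lay at LINC02848, 10.0 kb from TRIM35, 72.2 kb from ZNF722, and at LINC01504 and ZNF763. Their changes were 56.1, 56.0, 52.8, 67.5 and 61.8 points in that order. Those named after LINC02848 and ZNF722 lay on chromosome 7 and shared an LNCaP replicate 1 percentile of 57.7.

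At the other end, 8 members near a protein-coding gene end had the lowest LNCaP means. A region at chr10:8045065-8045738 at a promoter of GATA3, a luminal transcription factor, had 0.464 and 0.116 in LNCaP against 29.4 and 55.0 in resistance, so its resistant replicates differed by 25.7 points. TMC5 had 2.49 and 0.0847 against 72.7 and 72.0, the closest pair of resistant values among the 8. The region 1.42 kb from an end of KLK3, the gene of prostate-specific antigen, had 0.383 and 0.493 against 64.7 and 49.9.

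The other 5 of these lay at or near MAP1LC3A, an autophagy gene, PCDHA13, a protocadherin gene, GPR85, NPM2 and RPL3, a ribosomal protein gene, with changes of 50.9, 44.3, 41.1, 59.4 and 52.8 points. None of the 8 had an LNCaP value above 1.603 except TMC5, at 2.49 in replicate 1. These regions were called near the threshold of the lists in LNCaP and in the middle of the ranking in resistance.

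**Figure D2:**
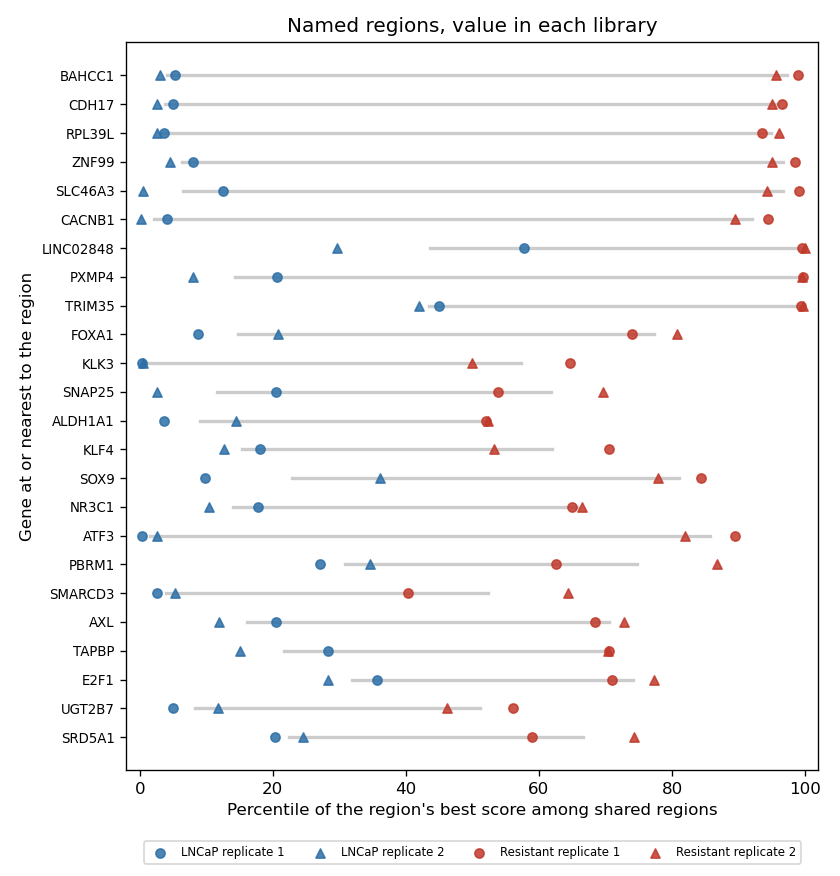
Percentile among shared regions (x axis) in LNCaP replicates 1 and 2 (blue) and resistant replicates 1 and 2 (red) for 24 named members (y axis), with a grey bar between the 2 cell type means. No red point lies left of a blue point, as the rule requires, and BAHCC1 to CACNB1 span nearly the whole scale, while genes from the lists mostly end between 50 and 90.

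Members within 3 kb of a gene end were counted in 12 lists of genes, 203 genes in all. Over all 12857 protein-coding genes with a shared region near an end, 697 (5.42%) had a member there and 247 (1.92%) a region that ranked lower. In the stemness list 3 of 9 genes had a member, in the growth factor receptor list 2 of 15 and in the androgen response and luminal list 2 of 18. One gene each had a member among 16 neuroendocrine, 11 AP-1, 14 antigen presentation, 21 cell cycle and 7 steroid metabolism genes. A region that ranked lower lay near 1 gene each of the stemness, androgen response, AP-1 and antigen presentation lists and near none of the other lists. The steroid receptor (3 genes), SWI/SNF (22 genes), Polycomb PRC2 (7 genes) and epithelial-mesenchymal (9 genes) lists had no member. The median change of the strongest shared region near each gene ran from −1.76 points in the antigen presentation list to 32.1 points in the stemness list, against 7.54 points over protein-coding genes. These lists are small, and 1 gene of 16 is already 6.25%, so the counts are given as a description.

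The stemness members lay at ALDH1A1, KLF4 and SOX9. ALDH1A1, which oxidises retinaldehyde to retinoic acid, had 3.64 and 14.5 in LNCaP against 52.1 and 52.3 in resistance at the promoter shown above. KLF4, a pluripotency factor, had 18.0 and 12.6 against 70.6 and 53.2. SOX9, a factor of prostate progenitors, had 9.73 and 36.0 against 84.3 and 77.8. At SOX9 the LNCaP replicates lay 26.3 points apart, the widest gap of the 3 genes.

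The AP-1 list had its member at chr1:212566667-212567670, 1.26 kb from an end of ATF3, a stress-induced factor. It had 0.373 and 2.63 in LNCaP against 89.4 and 81.9 in resistance, a change of 84.1 points and the largest of any list gene. A promoter inside NR3C1, the glucocorticoid receptor gene, at chr5:143403403-143404036 had 17.7 and 10.4 against 65.0 and 66.5. It did not count in the list above because it lay away from the outer ends of the gene. The resistant replicates lay 7.49 points apart at ATF3 and 1.46 points apart at NR3C1.

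In the neuroendocrine list the member lay at an end of SNAP25, a synaptic fusion protein gene, with 20.5 and 2.63 against 53.9 and 69.7. In the steroid metabolism list SRD5A1, which converts testosterone to dihydrotestosterone, had 20.3 and 24.5 against 59.0 and 74.3 at its promoter, and a region inside UGT2B7, which glucuronidates androgens, had 4.95 and 11.7 against 56.1 and 46.2. Among SWI/SNF genes, members lay inside PBRM1, with 27.1 and 34.6 against 62.6 and 86.8, and inside SMARCD3, with 2.62 and 5.28 against 40.3 and 64.3. The resistant replicates of both SWI/SNF genes differed by 24.0 points or more.

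Several list genes shared their member with a neighbour, and the region cannot be given to either gene. The region near FOXA1, a pioneer factor of the androgen receptor, lay 169 bp from an end of TTC6 and had 8.73 and 20.8 against 74.0 and 80.7. The region near AXL, a receptor tyrosine kinase, was at the promoter of HNRNPUL1 and had 20.4 and 11.9 against 68.4 and 72.7. That near E2F1 was at the promoter of NECAB3 and that near TAPBP at an end of ZBTB22, with changes of 42.2 and 48.7 points.

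Some further genes were picked after their values were seen, for known roles in drug response, signalling or transcription, and their promoters are named as examples only. STAT5A, a factor downstream of cytokine and prolactin receptors, had 4.96 and 2.98 in LNCaP against 82.7 and 78.6 in resistance. That region also lay at an end of the neighbouring gene STAT5B and cannot be given to either gene. ABCB1, the multidrug efflux pump, had 17.6 and 17.5 against 85.5 and 74.9 at an internal promoter. PDK4, an inhibitor of pyruvate dehydrogenase, had 25.9 and 25.5 against 94.4 and 97.4. In these 3 genes the LNCaP replicates lay within 2 points of each other.

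Among signalling genes, PTGS2, an inducible prostaglandin synthase, had 47.7 and 28.5 against 94.5 and 96.2, INHBA, a subunit of activin, had 12.0 and 14.9 against 68.4 and 74.4, and NT5E, the ectonucleotidase CD73, had 3.64 and 9.49 against 62.4 and 83.3. Among transcription factor genes, ETV1 had 45.4 and 25.4 against 84.9 and 84.8, NR2F1 had 4.14 and 5.21 against 60.05 and 60.3, and AHR, the dioxin receptor, had 25.2 and 14.5 against 70.3 and 71.3. PTGS2 and ETV1 were thus mid-ranked in LNCaP, whereas NR2F1 was near the bottom. A further promoter of GATA3, at chr10:8053210-8053804, had 6.59 and 9.42 against 54.8 and 49.8.

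SMAD3, HES6, BACH1, SATB1, SCN8A, CDK5R1, SRRM3, TXN and the apoptosis genes BAX and BCL2L11 also had a promoter member, with changes from 40.4 points at CDK5R1 to 52.2 points at HES6. BCL2L11 had 20.5 and 3.01 in LNCaP against 51.0 and 76.0 in resistance, so the replicates of both cell types were wide apart. BAX had 41.8 and 11.7 against 68.9 and 71.4, with LNCaP replicates 30.04 points apart.

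Where the members lie was not used to choose them and was compared with the other shared regions. Regions are not replicates, and the 95% intervals below (Wilson for a share, Newcombe for a difference) cover the counting of regions only. Of the members, 467 (30.9%) overlapped a promoter window, from 250 bases before to 50 after a RefSeq start, 388 (25.7%) lay within 3 kb of a gene end without such an overlap, 373 (24.7%) lay inside a gene away from its ends and 281 (18.6%) were intergenic. The regions that ranked lower had 3.45% at a promoter window and 52.7% inside genes.

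Within 3 kb of a gene end lay 810 members (53.7%, interval 51.2 to 56.2), against 22.9% of the regions that ranked lower, a difference of 30.8 points (27.7 to 33.8). Against all other shared regions, at 50.8%, the difference was 2.83 points (0.247 to 5.40), and it ran from −3.03 points with a limit of +50 and −1.63 points with percentiles among all summits to 9.85 points with a limit of +30 and 17.8 points with equal numbers of summits. Without resistant replicate 1 or 2 the difference was 8.75 or 7.35 points. The difference from the regions that ranked lower kept its direction under these alternatives, and that from shared regions as a whole did not.

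The share near gene ends moved with the strength of a region, and members differ from other regions in strength by their definition. Among regions with an LNCaP mean of 30 or less, 52.9% of members lay near a gene end against 42.3% of the others, 10.6 points more (7.62 to 13.5), and 29.1% overlapped a promoter window against 16.0%. Among regions with a resistant mean of 60 or more, 53.8% of members lay near an end against 73.3% of the others, 19.5 points fewer (difference −19.5, −22.5 to −16.5). Members were therefore more often near gene ends than other regions of low rank in LNCaP, and less often than other regions of high rank in resistance.

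**Figure D3:**
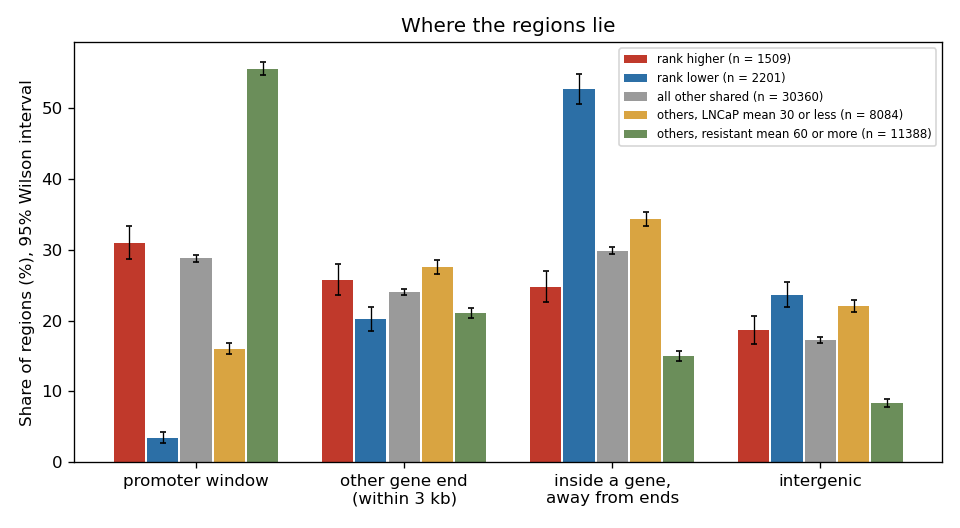
Share of regions (y axis, percent, with 95% Wilson intervals) at a promoter window, at another gene end, inside a gene and between genes (x axis), for members (red), regions that ranked lower (blue), all other shared regions (grey), and the others with an LNCaP mean of 30 or less (yellow) or a resistant mean of 60 or more (green). Members had 30.9% at promoter windows, between the yellow bar at 16.0% and the green bar at 55.6%, and the blue bar was 3.45%.

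Of the 467 members at a promoter window, 387 (82.9%) were at a protein-coding gene, covering 383 genes, against 91.4% of the other shared regions at a window. The median distance of the resistant summit to the start was 71.0 bp, against 73.0 bp. Their windows had a median of 67.7% G and C and a CpG observed over expected ratio of 0.811, near the 66.0% and 0.848 of the other shared regions and above the 53.0% and 0.264 of the 76 windows in regions that ranked lower. A ratio of 0.6 or more, a common mark of CpG islands, was found in 80.3% of member windows and 86.6% of the others.

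Motif letters were searched on both strands of these windows, for 11 motifs, and no motif contains another, although matches may overlap. TGANTCA, the AP-1 letters, occurred in 34 of 467 member windows (7.28%) against 4.16% of other shared windows, a difference of 3.12 points (1.05 to 5.87). The share was 11.8% in the regions that ranked lower and 7.71% in all 35116 promoter windows. Among regions with an LNCaP mean of 30 or less the difference was 4.32 points (1.67 to 7.68). Member windows therefore held these letters more often than other shared windows, and not more often than promoter windows as a whole.

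CCGGAAG, the ETS letters, occurred in 12.4% of member windows against 20.3% of other shared windows, 7.85 points fewer (difference −7.85, −10.7 to −4.44), and in 10.3% of all promoter windows. At an LNCaP mean of 30 or less the difference turned to 3.16 points (−0.113 to 7.05). CCAAT occurred in 34.9% of member windows against 38.3% (difference −3.36, −7.67 to 1.18), and at an LNCaP mean of 30 or less in 34.1% against 25.1%, 8.94 points more (3.70 to 14.4). All promoter windows held it in 34.6%. The ETS and CCAAT differences thus depended on which regions were compared, and the AP-1 difference had one direction in both comparisons.

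The intervals of the other 8 motifs included 0 in both comparisons. They were the CRE letters TGACGTCA, in 4.28% of member windows, 3.41% of other shared windows and 1.85% of all windows, the forkhead letters TGTTTAC, in 2.57%, 2.66% and 3.42%, the hormone receptor letters AGAACA, in 5.78%, 8.28% and 14.8%, and the GC box GGGCGG, in 74.5%, 72.6% and 45.0%. In the same order, the E-box CACGTG had 10.5%, 9.97% and 7.26%, the GATA letters AGATAA 4.93%, 4.37% and 10.3%, the TEAD letters GGAATG 10.7%, 10.5% and 14.0%, and the TATA letters TATAAA 6.42%, 4.96% and 11.5%. The intervals are not adjusted for the 11 motifs, and a match of letters is no binding site.

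**Figure D4:**
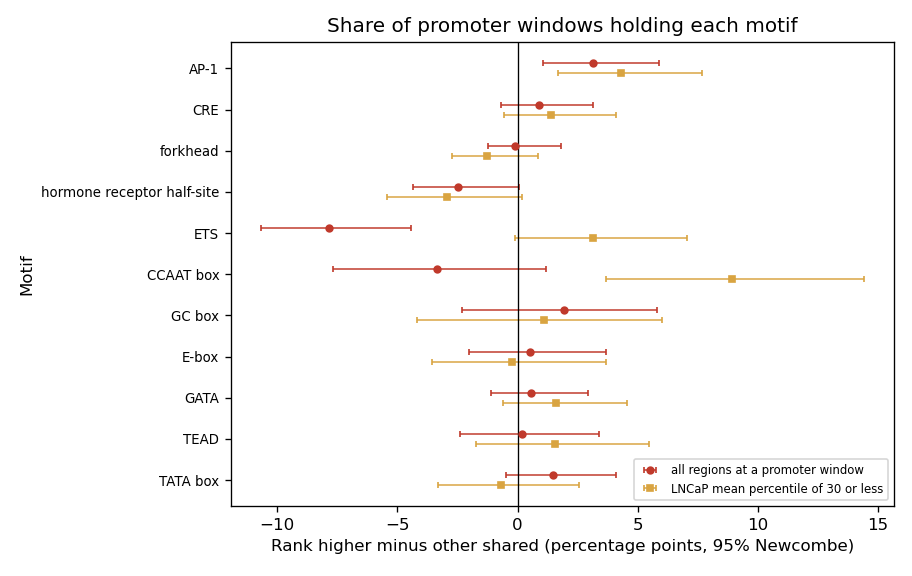
Share of promoter windows with each motif (y axis) in members minus that in other shared regions (x axis, percentage points with 95% Newcombe intervals), for all regions at a window (red circles) and for those with an LNCaP mean of 30 or less (yellow squares). AP-1 lies to the right of 0 in both, at 3.12 and 4.32 points, and ETS changes side, from −7.85 to 3.16 points.

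Members were spread over the genome, and their share was highest on chromosome 19. There, 111 of 1568 shared regions were members (7.08%, interval 5.91 to 8.46) and 49 (3.13%) ranked lower, and the median change of its shared regions was 6.47 points against 1.53 over all chromosomes. Chromosome 12 had the lowest share, 3.14% (2.38 to 4.13). More regions ranked higher than lower on 3 of 24 chromosomes, which were 9, 19 and X. Chromosomes 9, 19 and X had median changes of 4.51, 6.47 and 7.04 points, and the part of such shifts in the counts was not tested.

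**Figure D5:**
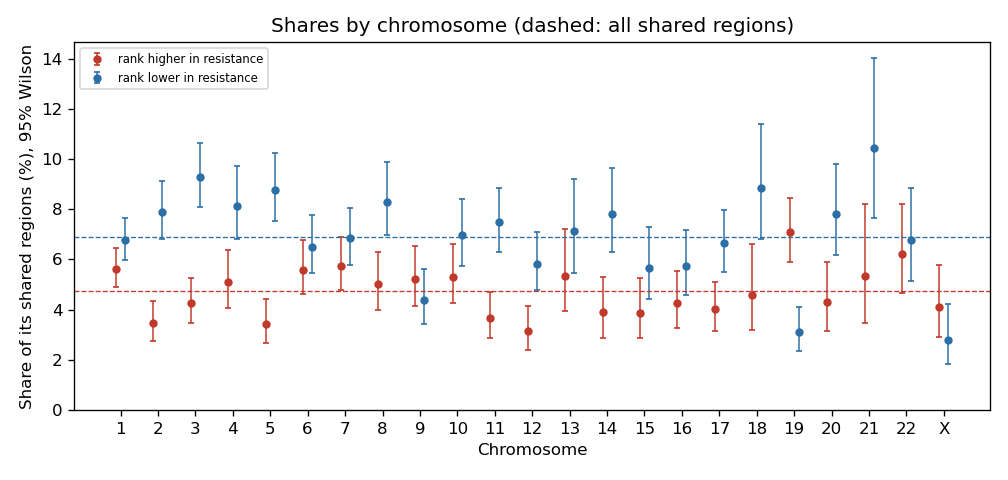
Share of each chromosome's shared regions (y axis, percent, with 95% Wilson intervals) that ranked higher (red) or lower (blue) in resistance, by chromosome (x axis, Y left out for its 29 regions), with dashed lines at 4.74% and 6.91%. The red point of chromosome 19, at 7.08%, lies highest, and its blue point, at 3.13%, lies below the red.

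Most members stood alone. With members within 100 kb joined, 1163 were single, 130 pairs, 22 groups of 3, 3 groups of 4 and 1 group of 6 were found. For 98 of 1190 members with a shared neighbour within 50 kb (8.24%, interval 6.80 to 9.93), the nearest one was a member too, against 4.83% over all shared regions. The median change of that neighbour was 2.93 points, against 2.18 for neighbours of any shared region, so neighbours as a group had changes close to that background.

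The group of 6 lay at chr19:17234773-17580121, a stretch of 345 kb from NR2F6 to COLGALT1 that also holds BST2, an interferon-induced antiviral gene. It had 24 shared regions, of which 1 ranked lower, and those that were not members had a median change of −0.859 points. The groups of 4 lay at chr1:23478950-23692010, with ASAP3, E2F2, ID3 and RPL11, at chr10:100987223-101095904, with MRPL43, TWNK, LZTS2, PDZD7, SFXN3 and KAZALD1, and at chr19:44747312-44915421, with BCL3, NECTIN2, TOMM40, APOE and APOC1 among others. In these 3 the other shared regions had median changes of 14.1, 25.4 and 7.26 points, so at the group on chromosome 10 the neighbours moved with the members.

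Regions found in 1 cell type alone gave a further comparison, with 5800 resistant-only and 41527 LNCaP-only regions. Of the members, 460 (30.5%) had a resistant-only region, with summits in both resistant libraries and in neither LNCaP library, within 50 kb, against 27.4% of other shared regions (difference 3.05, 0.724 to 5.47) and 24.4% of those that ranked lower (difference 6.09, 3.16 to 9.03). The share of members was 61.5% without resistant replicate 2 and 51.1% with equal numbers of summits. Both settings also change which regions are members and which count as resistant-only, and the share of other shared regions was not computed under them. At an LNCaP mean of 30 or less the first difference was 1.31 points (−1.37 to 4.08). LNCaP-only regions lay within 50 kb of 74.95% of members against 80.2% of other shared regions (difference −5.28, −7.57 to −3.11). Members were thus less often near LNCaP-only regions, while the difference for resistant-only regions had an interval that included 0 among regions of low rank in LNCaP.

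The ranking used only shared regions, and this choice bears on the members. With percentiles taken among all summits of a library, 572 of the 1509 (37.9%) remained members. The LNCaP lists held 117245 and 107344 summits and the resistant lists 70866 and 45618. Read numbers are not part of the lists, which leaves the depth unknown, and the part of list length in the ranks was not tested. With summits required within 150 bp of one another 1099 remained, and 334 (22.1%) remained under both window sizes, all-summit percentiles, that requirement and the replicate rule together. No member remained under all 11 alternatives, which also leave out each library, require a score of at least 10 or take equal numbers of summits.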

How the data were processed

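ATAC-seq was analysed in 2 LNCaP and 2 LNCaP-resistance libraries. The submitters' processing notes name Bowtie2 2.2.5, SAMtools 1.6, MACS2 2.2.6 and build hg38, among other tools. The authors called peaks per library and deposited the summits, each with a score that is a −log10 p-value or q-value (which of these is not given in the sources used here). Scores took repeated values, so low percentiles are often tied, and ties also occurred in the middle of the LNCaP ranking.

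The members, gene lists and tests were chosen with earlier results of these data known. Regions, ranks and the member rule are given with the results. Genes (59675, of them 20033 protein-coding) and 35116 promoter windows came from RefSeq on GRCh38.p14. The gene table has no strand, so either end of a gene counts as an end, and 2 members outside the main chromosomes have no gene position. Named were the 12 largest changes, the 8 highest resistant means, the 8 lowest LNCaP means near a protein-coding end, members at list genes, the 3 regions on either side of the limit, the longest groups and up to 8 promoters with sequence. A region is named after its gene or the nearest protein-coding gene, which need not be its target. Some regions that this rule names are not reported here.

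Shares have 95% Wilson intervals and differences Newcombe intervals. The alternatives were windows of 100 and 500 bp, percentiles among all summits, equal numbers of summits, a minimum score of 10, limits of +30 and +50, summits within 150 bp, leaving out each library, a replicate block, gene ends within 1 kb or of protein-coding genes alone and 10 kb to resistant-only regions. Comparisons at set LNCaP or resistant levels, and all alternatives for the 2 differences in share, were chosen after seeing the data. The batch labels give a repeat number to each library, and deviations of same-numbered libraries had a correlation of −0.044 over the 31869 shared regions. The scripts were tested on simulated lists. The versions were pandas 2.3.3, numpy 2.4.6, matplotlib 3.10.9 and scipy 1.17.1 under Python 3.11.15.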

Additional observations from a re-analysis of the deposited data

How the results depend on the processing

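The count of 1509 members was 644 with percentiles among all summits, 713 with a score of at least 10, 3110 at +30 points, 785 at +50 points and 970 under the replicate block, which pairs libraries by repeat number, and 1799 to 2474 with a library left out (2474 without resistant replicate 2). With equal numbers of summits the count was 1089, and 193 of the original 1509 remained. Each setting selects its own members, and the values below describe those. The median change of 50.6 points was 39.5 at +30 points, by construction, and 49.5 to 51.3 with a library left out. The share of members near a gene end (53.7%) was 50.2% with windows of 100 bp, 49.4% with percentiles among all summits, 65.1% at a score of at least 10, 72.8% with equal numbers of summits, 59.9% at +30, 48.0% at +50, 50.3% with aligned summits, 44.5% at 1 kb and 39.8% for protein-coding genes alone, and 51.5% to 58.5% with a library left out. The share with a resistant-only region within 50 kb (30.5%) was 33.9% and 26.3% with windows of 100 and 500 bp, 22.6% at a score of at least 10, 51.1% with equal numbers of summits, 8.35% at 10 kb, and 38.9% to 61.5% with a library left out, where fewer libraries define such regions. The share of other shared regions was not computed under these settings.

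The difference near gene ends from the regions that ranked lower (30.8 points) kept its direction under every alternative, at 26.5 points with percentiles among all summits, 40.8 at a score of at least 10, 49.1 with equal numbers of summits, 36.3 at +30, and 30.1 to 35.2 with a library left out. That from other shared regions (2.83 points) was −1.63 with percentiles among all summits, −3.03 at +50, −19.5 at a resistant mean of 60 or more, 17.8 with equal numbers of summits, 9.85 at +30, 0.246 for protein-coding genes alone, 10.6 at an LNCaP mean of 30 or less, and 2.06 to 8.75 with a library left out. The cause of these moves was not tested. The replicate block turned no direction. Under a minimum score and equal numbers of summits, 411 and 193 of the 1509 members remained. A minimum score removes low-scored summits of every library. Equal numbers keep all 45618 summits of resistant replicate 2 and remove low-scored summits of the other libraries. Median scores of the 1509 members were 11.3 and 8.43 in LNCaP replicates 1 and 2, against 59.3 and 27.2 in resistant replicates 1 and 2. The reason for the loss was not tested. Depth is unknown.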

Other observations

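Gene families outside the lists were also counted by the members within 3 kb of a gene end. Among zinc finger genes with symbols in ZNF, 18 of 415 with a shared region had a member (4.34%), among ribosomal protein genes 4 of 81 (4.94%) and among transfer RNA genes 7 of 251 (2.79%), all below the 5.42% of protein-coding genes, while 339 of 5216 lncRNA genes had one (6.50%). Histone genes had 5 of 51 (9.80%), and a group of 3 members lay at chr6:25962520-26033962 among H1-1, H3C1, H4C1, H4C2, H3C2 and H2AC4. None of 19 HOX genes had a member. A region that ranked lower lay near 4 zinc finger (0.964%), 3 ribosomal protein (3.70%), 2 transfer RNA (0.797%), 238 lncRNA (4.56%), 1 HOX (5.26%) and 0 histone genes. The share over protein-coding genes was 1.92%. Regions that ranked lower, like members, thus lay near a larger share of lncRNA genes than of protein-coding genes. The strongest shared region near each gene had a median change of 18.9 points over the histone genes and 15.1 over the HOX genes, against 7.54 over protein-coding genes.

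A group of 3 members lay in 3 of 3 shared regions at chr14:34554859-34693521, which holds SNX6, a sorting nexin gene. Another lay at chr1:19872125-19921776 with OTUD3 and PLA2G2E, in 3 of 4 shared regions. The median change of the 4 was 63.6 points, and the region that was not a member changed by 30.2 points. At chr19:21463715-21569581, around ZNF429, 3 of 4 shared regions were members. The median change of the 4 was 63.0 points, and the region that was not a member changed by −6.71 points. Each stretch runs from its first to its last member, so its share of members and median change are high by construction.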
